A study of Mus musculus with 17 samples.

Results

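The orbitofrontal cortex (OFC) was compared with the medial prefrontal cortex (mPFC) in perseverers, the mice that the study classed as addicted. All 6 libraries that the labels describe as perseverer dissections entered the comparison, 3 from the OFC and 3 from the mPFC, of 17 libraries in the series. The tissue was dissected after oDASS, optogenetic dopamine neuron self-stimulation, in which a mouse works for light pulses to those neurons; perseverers go on when the reward is paired with punishment, and renouncers stop. Both groups come from the DAT-cre line, in which Cre recombinase is made in the neurons that express the dopamine transporter, and both went through the same protocol, so that the groups differ by region. Age and sex are not given in the labels. All 6 libraries held counts on Y-linked genes (1100 to 1746) and 0 on the RNA that inactivates the X chromosome. Nothing in the labels tells whether the replicates were different mice, so that the p values measure the spread between these libraries, which may be technical.

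The OFC and the mPFC are neighbouring parts of the frontal cortex. The OFC is known for tracking the value of expected outcomes, and the mPFC for the control of actions and the response to threat. Both are built of layered glutamatergic neurons with GABAergic interneurons between them. Cortical areas differ in the thickness of their layers, in myelin and in the shares of interneuron classes. Bulk RNA averages over all of these cells: fewer cells of a type and less RNA per cell cannot be told apart.

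Library totals were 14618655 to 18321777 counts in the OFC and 13677451 to 17895184 in the mPFC. Haemoglobin genes took 0.0446% to 0.0696% of the counts. The glutamatergic marker list of 10 genes summed to 5389.8 to 6128 CPM in the OFC and 4994 to 7080.4 in the mPFC, and the 10 interneuron markers to 837 to 1047 and 760.3 to 1170.4, so that both regions carried the marker genes of cortex. CPM is the usual count of a gene relative to its library, after TMM scaling, and values are given in the order of replicates 1, 2 and 3. A log2 fold change is the OFC over the mPFC, so that positive values are higher in the OFC, and it is followed by its standard error. A gene passed the test at a Benjamini-Hochberg adjusted p under 0.05 in edgeR's quasi-likelihood test, taken over all 14537 genes tested.

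Without regard to replicate numbers 8 genes passed, 0.055% of the genes tested, 4 in each direction (0.0275% each). They lay in 6 places in the genome: the long noncoding RNA gene E030003E18Rik lies inside the span of Aldh1a1, and Gpr39 and Lypd1 overlap on opposite strands. Promoter sequence (the 250 bases before the annotated start, RefSeq, GRCm38.p6, all 4 on the plus strand, read 5′ to 3′) is shown for 4 of the 8, with a match to the AP-1 motif TGANTCA in capitals, because of the 6 motifs searched this was the one found most often in the group, and Vamp1 shows a member without it.
Aldh1a1, chr19:20492333-20492582: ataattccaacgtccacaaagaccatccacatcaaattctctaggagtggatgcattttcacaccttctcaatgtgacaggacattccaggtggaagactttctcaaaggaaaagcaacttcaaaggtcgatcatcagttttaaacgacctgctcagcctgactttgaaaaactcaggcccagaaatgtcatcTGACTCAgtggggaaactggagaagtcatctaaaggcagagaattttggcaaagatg
Gpr39, chr1:125676746-125676995: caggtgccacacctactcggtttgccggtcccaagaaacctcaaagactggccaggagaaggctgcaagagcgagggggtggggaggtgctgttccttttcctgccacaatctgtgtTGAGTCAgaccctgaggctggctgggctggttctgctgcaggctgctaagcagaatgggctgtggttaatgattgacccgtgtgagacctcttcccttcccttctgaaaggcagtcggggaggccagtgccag
Necab2, chr8:119446469-119446718: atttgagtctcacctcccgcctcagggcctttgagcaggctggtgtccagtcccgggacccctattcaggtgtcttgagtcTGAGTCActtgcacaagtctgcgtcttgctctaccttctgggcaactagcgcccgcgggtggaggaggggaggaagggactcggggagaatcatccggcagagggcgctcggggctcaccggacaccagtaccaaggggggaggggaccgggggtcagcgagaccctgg
Vamp1, chr6:125215331-125215580: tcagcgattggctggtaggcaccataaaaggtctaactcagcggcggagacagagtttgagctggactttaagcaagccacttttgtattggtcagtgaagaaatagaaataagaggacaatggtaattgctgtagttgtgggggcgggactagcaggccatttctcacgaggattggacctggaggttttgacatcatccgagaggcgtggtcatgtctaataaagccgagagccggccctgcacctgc

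Of the 8 genes, 7 had a promoter entry, here of 300 bases (250 before the start and 50 after it), and 4 of these held TGANTCA: Aldh1a1 at 57 bases before the start, Gpr39 at 133, Necab2 at 169, and E030003E18Rik at 189. The matches of Aldh1a1 and E030003E18Rik are the same bases, at 20492526 on chromosome 19, so that there were 3 separate sites. Aldh1a1 has another annotated start at 20601968, whose promoter held no match, and counts per gene do not tell which start was used. The motif, which reads the same on both strands, was in 6.23% of 11477 tested genes with a promoter. It was in 9.43% of the 244 genes with a promoter that were higher in the OFC in the fit with the pairs as a block, and in 7.73% of 233 that were higher in the mPFC. E-box letters CACGTG were found in 1 of the 7 (Lypd1) against 11.5% of all, and the letters TGACGTCA, GCGTGGGCG and AAGGTCA and the MEF2 motif in 0. With the block the MEF2 motif was in 6.15% of promoters of genes higher in the OFC, against 3.76% of all. For genes higher in the mPFC it was 3.86%. None of these shares was tested. A match describes the letters and is no evidence of binding.

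Aldh1a1, a gene of retinoic acid synthesis, was higher in the OFC. It codes for a retinaldehyde dehydrogenase (chromosome 19, 20492583 to 20643463) and stood at 103, 82.7 and 125.4 CPM in the OFC. In the mPFC it stood at 13.1, 19.2 and 22.8, and the lowest OFC library was far above the highest mPFC library. The log2 fold change was 2.49 ± 0.25 (adjusted p = 0.0219, edgeR). E030003E18Rik, which starts at 20492715 within that span, stood at 10.02, 8.34 and 14.6 CPM against 1.01, 1.52 and 1.71 (2.94 ± 0.35; adjusted p = 0.0325). Its libraries did not overlap either, and since both genes are on the plus strand and the way of counting shared bases is not given, the 2 are not independent measurements.

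The other 2 genes that were higher in the OFC code for membrane proteins. Vamp1, a vesicle SNARE protein that drives transmitter release and is typical of fast-spiking neurons (chromosome 6, 125215581 to 125222306), stood at 134, 126 and 152 CPM in the OFC and 60.3, 46.9 and 44.7 in the mPFC. Every OFC library was above every mPFC library, with a log2 fold change of 1.44 ± 0.17 (adjusted p = 0.0325, edgeR). Tmem215, a transmembrane protein gene on chromosome 4 (40472180 to 40475653), stood at 14.1, 22.3 and 18.8 CPM against 4.04, 4.21 and 3.99 (2.17 ± 0.24; adjusted p = 0.0249). The mPFC values lay close together and the OFC values spread more, without overlap.

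On the mPFC side the gene with the smallest p was Grp, which codes for gastrin-releasing peptide, a neuropeptide of subsets of cortical neurons (chromosome 18, 65872751 to 65886599). It stood at 3.74, 4.36 and 2.54 CPM in the OFC and 30.4, 24.4 and 27.5 in the mPFC, a log2 fold change of -2.94 ± 0.25 (adjusted p = 0.0154, edgeR). The OFC libraries were all low and the mPFC libraries all high. Lypd1, a membrane-anchored protein that binds nicotinic acetylcholine receptors (chromosome 1, 125867622 to 125913175), stood at 45.7, 59.9 and 58.9 against 163, 168 and 162 CPM (-1.58 ± 0.16; adjusted p = 0.0219). Gpr39, a zinc-sensing receptor gene whose span ends inside Lypd1 (125676996 to 125873862), stood at 31.3, 41.1 and 40.8 against 105.97, 117 and 107 (-1.54 ± 0.17; adjusted p = 0.0221). Of the exon bases of Gpr39, 39.9% are also exon bases of Lypd1, and 17.1% the other way, and without strand the reads on them cannot be assigned, so that Gpr39 is uncertain. Necab2, a calcium-binding protein that interacts with adenosine and glutamate receptors (chromosome 8, 119446719 to 119472640), stood at 17.9, 17.6 and 19.5 against 47.1, 49.8 and 49.9 CPM (-1.42 ± 0.15; adjusted p = 0.0221), with little spread within either region.

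The next genes by p did not pass. Scn4b, an accessory sodium channel subunit, stood at 75.8, 77.9 and 77.8 CPM in the OFC and 30.8, 17.5 and 18.6 in the mPFC (1.79 ± 0.23; adjusted p = 0.0525, edgeR). Nos1, the neuronal nitric oxide synthase, stood at 8.58, 12.5 and 7.42 against 29.1, 34.8 and 35.8 (-1.80 ± 0.23; adjusted p = 0.0525). Rspo1, a secreted activator of Wnt signalling, stood at 11.1, 13.3 and 16.7 against 2.96, 3.34 and 4.62 (1.91 ± 0.28; adjusted p = 0.0960). In all 3 the regions did not overlap. The number of calls depended on single libraries. Without OFC replicate 1, OFC replicate 3, mPFC replicate 1 or mPFC replicate 2, 0 genes passed. Without OFC replicate 2 the count fell to 2, and without mPFC replicate 3 it rose to 15. On the same 6 libraries DESeq2 called 140 genes and limma voom 214.

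**Figure D1:**
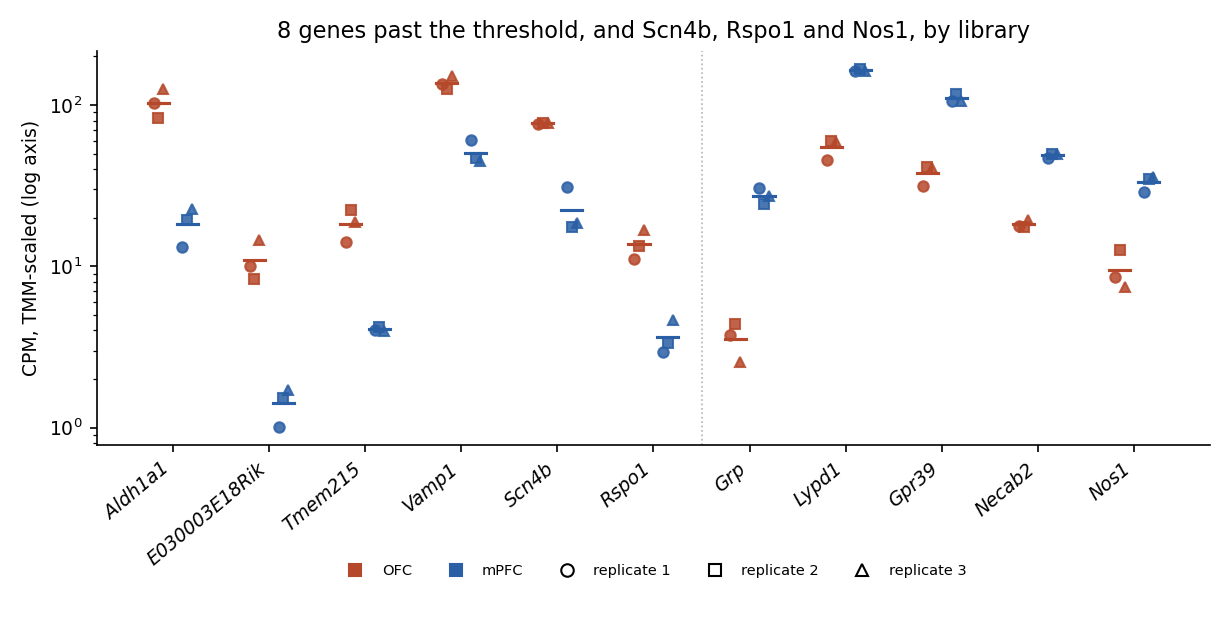
CPM on a log axis of the 8 genes past the threshold and of Scn4b, Rspo1 and Nos1 in each of the 6 perseverer libraries; colours mark the region, shapes the replicate number and bars the mean of 3 libraries. In each of the 11 genes the OFC and mPFC points do not overlap; genes left of the dotted line are higher in the OFC.

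Libraries with the same replicate number deviated together to a varying degree. Across all tested genes, which are not independent, the deviations of the OFC and mPFC libraries from their group means correlated at 0.12, 0.33 and 0.40 for replicates 1, 2 and 3. The value between OFC replicate 2 and mPFC replicate 1 was 0.11, and the other 5 pairs of different number lay between -0.36 and -0.0037. Deviations from a mean of 3 libraries cancel out within a region, so that positive values at equal numbers bring negative ones elsewhere. The negative values are therefore no separate evidence of pairing. The trend of expression with gene length had the same sign in both libraries of replicates 2 and 3 and opposite signs in replicate 1: its Spearman correlation over 8349 genes was 0.22 and 0.19 in the OFC and mPFC of replicate 2, -0.16 and -0.15 in those of replicate 3, and -0.12 and 0.11 in those of replicate 1. The labels do not say that equal numbers mean the same animal or day. Library codes in the sample descriptions are consecutive for the OFC and mPFC libraries of each replicate number, in perseverers and in renouncers, and their meaning is not explained. With the replicate number as a block, 648 genes passed (4.46%), 318 higher in the OFC (2.19%) and 330 higher in the mPFC (2.27%), and all 8 genes above were among them. Of the 648, 103 (55 and 48) also passed in each of the 3 fits that left out a pair; they are called the stable genes here. Without pair 1, 2 or 3 the count was 187, 131 or 1925. On simulated data of this size more of the calls made with the block were false than the threshold allows. The groups themselves did not overlap in 1879 genes (12.9%), 6.82% with the OFC higher and 6.1% with the mPFC higher. In the gene groups that follow, calls and the fold changes of single genes are from the fit with the block, and apart from the 8 none of their genes passed without it. The number of calls in a group is to be read beside the shares over all genes, 2.19% and 2.27% by direction. No group was tested as a set, and 1 or a few calls are no result about a family. Medians of a group and its numbers of positive and negative fold changes are from the fit without the block.

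Most myelin genes were higher in the OFC. Of 14 tested, 12 passed with the OFC higher and 0 with the mPFC higher, and the median log2 fold change was 0.90, against -0.01 over all genes. Their summed level was 14788, 6166 and 19982 CPM in the OFC and 5383, 2336 and 6997 in the mPFC. The regions overlapped, because replicate 2 was low in both, but the OFC held 2.75, 2.64 and 2.86 times the mPFC level of the same number (mean 2.75 ± 0.11, SD, n = 3 pairs). Most of that sum was Mbp and Mobp in every library, so that the ratio is mainly theirs. For a typical member of the list the median of 0.90 is the measure. Mbp, myelin basic protein, stood at 9329.8, 3519 and 13147 CPM in the OFC and 2994, 1152 and 4489 in the mPFC. Within pairs its log2 ratio was 1.64, 1.61 and 1.55, and the fit with the block gave 1.60 ± 0.07 (adjusted p = 8.51e-07, edgeR; 0.602 without the block). Mobp, another protein of compact myelin, stood at 2632, 871 and 4624 against 677, 233 and 1399 (1.86 ± 0.08; adjusted p = 8.51e-07). Of the 12, 6 were stable genes; 10, 6 and 13 of the 14 passed without pair 1, 2 and 3. Trf, an iron transporter counted among the 12, shares 63.5% of its exon bases with Gm20425 and is uncertain.

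Precursor cells of the lineage did not follow as a group. Among 11 oligodendrocyte precursor markers 1 passed, Bcas1 (471, 188 and 703 against 143, 66.8 and 238 CPM; 1.59 ± 0.09, adjusted p = 7.78e-06, edgeR), a gene that is also expressed in myelinating cells. The median of that list was -0.20. Of 12 astrocyte markers 5 passed with the OFC higher and 0 with the mPFC higher; all 12 fold changes were positive and the median was 0.23. Without pair 1, 2 and 3 the number that passed was 2, 1 and 6. Gfap, the intermediate filament of astrocytes, stood at 377, 450.4 and 485 CPM in the OFC and 100.4, 243 and 221 in the mPFC, without overlap (1.31 ± 0.16; adjusted p = 0.00316), and was the only stable gene of the 5. Fgfr3, a growth factor receptor of astrocytes, stood at 252, 260.0 and 260.4 against 186, 188 and 167 (0.51 ± 0.08; adjusted p = 0.00743). Of microglia (12), endothelial (12) and mural (9) markers 0 passed in either direction with the block.

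Genes listed as interneuron markers passed in both directions. The general GABAergic markers had 0 of 10 past the threshold, with 9 fold changes negative and a median of -0.18. Of 21 genes listed as markers of interneuron classes, 1 passed with the OFC higher and 7 with the mPFC higher, and 17 fold changes were negative. Bulk counts do not tell whether the RNA of these genes came from interneurons or from other neurons. The 1 was Pvalb, the calcium buffer parvalbumin of fast-spiking interneurons, at 105, 95.5 and 153 CPM in the OFC and 64.0, 34.5 and 60.8 in the mPFC. All OFC libraries were above all mPFC libraries (1.17 ± 0.14; adjusted p = 0.00123, edgeR with the block; 0.378 without). The 7 were Nos1, Calb2, Htr3a, Cck, Calb1, Cnr1 and Kit, of which Cck, Calb1 and Kit are named after their values were seen. Nos1 gave -1.82 ± 0.19 with the block (adjusted p = 4.90e-04). Calb2, the calretinin gene of vasoactive intestinal peptide cells and others, stood at 8.87, 14.7 and 11.02 CPM in the OFC and 13.9, 22.0 and 27.6 in the mPFC, which overlap (-0.85 ± 0.20; adjusted p = 0.0391). Htr3a, the ionotropic serotonin receptor of a superficial interneuron class, stood at 6.34, 10.1 and 4.24 against 9.02, 23.6 and 11.6 (-1.06 ± 0.24; adjusted p = 0.0324), also with overlap. Cnr1, the cannabinoid receptor of cholecystokinin cells, stood at 96.8, 137 and 65.7 against 144, 175 and 109 (-0.55 ± 0.10; adjusted p = 0.0128). Pvalb and Nos1 were stable genes and the other 6 were not; without pair 1, 2 and 3 the count on the mPFC side was 3, 2 and 6.

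Sodium channel genes passed in both directions. Of 10 voltage-gated sodium channel genes, 3 passed in each direction. Among those higher in the OFC were Scn4b (1.83 ± 0.17; adjusted p = 3.05e-04, edgeR with the block) and Scn1a, the main pore subunit of parvalbumin cells. Scn1a stood at 79.1, 81.5 and 58.8 CPM in the OFC and 54.7, 49.8 and 38.9 in the mPFC (0.61 ± 0.11; adjusted p = 0.0113), without overlap. Higher in the mPFC were Scn2a, Scn3a and Scn3b, the first 2 chosen for printing after their values were seen, with log2 fold changes of -0.51, -0.78 and -0.60. Their regions overlapped, as Scn3b shows with 50.5, 67.0 and 32.1 CPM in the OFC and 77.7, 100.3 and 48.7 in the mPFC. Scn4b was a stable gene, and Scn1a, Scn2a, Scn3a and Scn3b were not; without pair 1 or pair 2, 0 passed with the mPFC higher.

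Potassium channel genes gave 3 of 46 higher in the OFC and 2 higher in the mPFC, with a median of 0.04. Over all genes tested the shares were 2.19% and 2.27%, so that these few calls say little about the family. Kcng4, a modifier subunit of delayed rectifier channels, stood at 13.2, 17.9 and 14.5 CPM in the OFC and 5.92, 5.30 and 4.33 in the mPFC (1.55 ± 0.23; adjusted p = 0.00414, edgeR with the block), with no overlap. It was not a stable gene, and the counts of the list were 1 and 0 without pair 1, 0 and 0 without pair 2, and 8 and 6 without pair 3. Of 5 neurofilament genes, which build the cytoskeleton of large axons, 3 were higher in the OFC and 0 in the mPFC. Nefh, the heavy subunit, stood at 79.0, 101 and 83.3 CPM in the OFC and 62.2, 56.0 and 56.4 in the mPFC (0.59 ± 0.12; adjusted p = 0.0209). Nefm and Nefl gave 0.56 and 0.49, and share exon bases on opposite strands (19.2% and 32.8% of each), so that they are not independent. All 3 lost their call without pair 2. Calcium channel genes gave 2 of 18 higher in the mPFC and 0 in the OFC. They were Cacna1e, the R-type pore subunit (7.60, 8.07 and 6.36 against 16.9, 21.0 and 13.9 CPM; -1.22 ± 0.19), and Cacna1c, an L-type pore subunit (-0.93). Neither was a stable gene, and without pair 1, 2 and 3 the count on the mPFC side was 0, 1 and 6. The summed myelin level also differed between the regions, and its part in the differences of these genes was not tested.

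**Figure D2:**
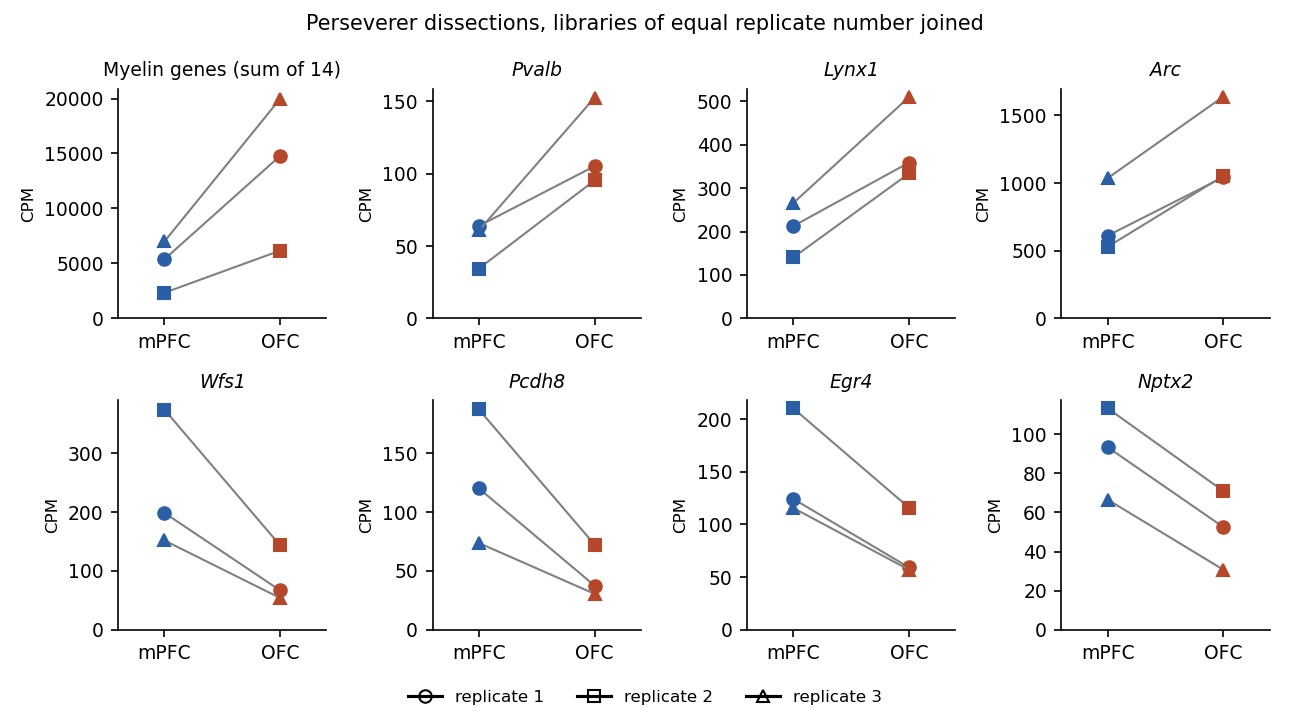
CPM in each mPFC and OFC library, with the libraries of equal replicate number joined, for the sum of 14 myelin genes and for Pvalb, Lynx1, Arc, Wfs1, Pcdh8, Egr4 and Nptx2. The 3 lines of a panel slope the same way in every case; the myelin sum of OFC replicate 2 (6166) lies below that of mPFC replicate 3 (6997).

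Synaptic release genes went both ways. Of 46 genes for vesicle fusion, 6 were higher in the OFC and 5 in the mPFC, and the median was -0.02. Beside Vamp1, Cplx1, a complexin that clamps and triggers fusion, stood at 885, 875 and 1153 CPM in the OFC and 692, 554 and 575 in the mPFC (0.67 ± 0.11; adjusted p = 0.00711, edgeR with the block), without overlap. On the other side Syt17, a synaptotagmin of secretory traffic, stood at 48.6, 61.1 and 36.7 against 84.7, 94.7 and 74.8 (-0.82 ± 0.12; adjusted p = 0.00324) and was a stable gene. Doc2a, a calcium sensor of spontaneous release, gave -0.62, and shares 39.4% of its exon bases with Ino80e, so that it is uncertain. Of 30 synaptic adhesion genes, 2 were higher in the OFC, the secreted synapse organisers Cbln2 (85.7, 116 and 81.1 against 61.3, 66.3 and 48.0 CPM; 0.68 ± 0.11) and Cbln4 (0.86), and 1 was higher in the mPFC. In that list 24 of 30 fold changes were negative. Without pair 1, 2 and 3 the vesicle fusion counts were 4 and 5, 2 and 2, and 11 and 15, and the adhesion counts 1 and 0, 0 and 0, and 2 and 7.

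Glutamate receptor genes that passed were all higher in the mPFC. They were 2 of 7 metabotropic receptor genes, 1 of 7 NMDA receptor genes and 2 of 28 AMPA and kainate receptor genes, and 0 passed with the OFC higher. Shisa9, an accessory AMPA receptor protein, stood at 34.5, 38.0 and 23.5 CPM in the OFC and 56.4, 73.0 and 32.9 in the mPFC (-0.72 ± 0.13; adjusted p = 0.0130, edgeR with the block), and the regions overlapped. Grm5, a group I metabotropic receptor, gave -0.49, Gria1, an AMPA receptor pore subunit, -0.52, and the NMDA receptor subunit Grin2b -0.48. None of the 5 that passed was a stable gene: without pair 2, 0 genes of these 3 lists passed. Of 14 GABA receptor genes 0 passed.

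Receptors for modulators divided as well. Lynx1, a membrane-anchored brake on nicotinic receptors, stood at 359, 334 and 509 CPM in the OFC and 212, 140.3 and 266 in the mPFC (0.98 ± 0.10; adjusted p = 4.90e-04, edgeR with the block). Among 11 acetylcholine receptor genes and regulators it was the only one higher in the OFC, and Lypd1, of the same protein family, the only one higher in the mPFC. Serotonin receptor genes gave 2 of 12 higher in the OFC and 1 higher in the mPFC. Htr2a, the cortical receptor through which psychedelics act, stood at 30.4, 29.1 and 12.7 CPM in the OFC and 13.0, 17.9 and 4.90 in the mPFC, which overlap because replicate 3 was low in both (1.09 ± 0.19; adjusted p = 0.00999). Htr7 stood at 8.70, 9.69 and 9.82 against 4.44, 3.99 and 5.64 (1.01 ± 0.25; adjusted p = 0.0497), and Htr3a, given above, was the 1 on the other side. Of 11 dopamine genes 2 were higher in the OFC. Ppp1r1b, the phosphatase inhibitor DARPP-32 downstream of dopamine receptors, stood at 166, 146 and 149.6 CPM against 121, 86.0 and 75.0 (0.74 ± 0.11; adjusted p = 0.00525), and Gnal, a G protein subunit, gave 0.43. Both are also abundant in striatal neurons. The 19 striatal markers summed to 597 to 652 CPM in the OFC and 554 to 623 in the mPFC, which overlap. Ppp1r1b, and Penk given below, are themselves in that sum, so that it is no separate check on them. Of 15 striatal markers tested, 2 passed with the OFC higher and 1 with the mPFC higher. Their median log2 fold change was -0.14, with 6 positive and 9 negative. Among neuropeptides 1 of 21 was higher in the OFC, Penk (86.1, 105 and 65.8 against 57.8, 75.3 and 44.7 CPM; 0.54 ± 0.10), the precursor of enkephalin, and 4 were higher in the mPFC. Stable among the genes of these receptor and peptide lists were Lynx1, Lypd1 and Grp.

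Immediate early genes, which neurons switch on within minutes to hours of activity, passed in both directions. Of 22 tested, 8 passed with the mPFC higher and 1 with the OFC higher, and the median log2 fold change was -0.44. In summed level the OFC held 0.93, 1.002 and 1.11 times the mPFC level of the same number (mean 1.01 ± 0.09, SD, n = 3 pairs). The sums were 2307, 2924 and 2838 CPM in the OFC and 2475, 2919 and 2556 in the mPFC. A large part of them was Arc, the 1 gene on the OFC side, whose values are given below. A sum follows its most abundant members, so that it does not describe the other genes of the list. Egr4, a zinc finger transcription factor, stood at 59.1, 116 and 56.9 CPM in the OFC and 124.3, 210.4 and 116 in the mPFC (-0.98 ± 0.10; adjusted p = 3.57e-04, edgeR with the block). OFC replicate 2 was as high as the lowest mPFC library, so that the regions met. Junb, an AP-1 subunit, stood at 74.3, 127 and 75.2 against 137, 199 and 132 (-0.78 ± 0.09; adjusted p = 0.00123). Nptx2, a secreted protein that clusters AMPA receptors, stood at 52.5, 70.9 and 30.7 against 93.4, 113 and 66.6 (-0.87 ± 0.12; adjusted p = 0.00251), and Nr4a3, an orphan nuclear receptor, at 9.50, 13.3 and 12.6 against 27.5, 22.9 and 21.0 (-1.02 ± 0.20; adjusted p = 0.0179). The others on this side were Fos, Egr2, Npas4 and Nr4a1, named after their values were seen, with -0.68, -1.14, -0.88 and -0.60. The 1 gene on the OFC side, also named afterwards, was Arc, an effector that removes AMPA receptors from synapses, at 1044, 1053 and 1639 CPM against 612, 529.7 and 1036 (0.81 ± 0.08; adjusted p = 4.90e-04). The regions did not overlap for Arc, but OFC replicate 1 (1044) was barely above mPFC replicate 3 (1036). Stable genes were Arc, Egr2, Egr4, Junb and Nptx2. Without pair 1, 2 and 3 the counts were 4, 5 and 12 higher in the mPFC and 1, 2 and 1 higher in the OFC. How long after behaviour each region was taken is not in the labels.

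Protocadherins and cadherins that passed were higher in the mPFC. Of 11 protocadherins outside the gene clusters 3 passed, all with the mPFC higher, and the median was -0.33. Pcdh19, an adhesion protein of neuron subsets, stood at 15.4, 16.6 and 14.4 CPM in the OFC and 36.0, 49.2 and 28.4 in the mPFC (-1.26 ± 0.16; adjusted p = 0.00169, edgeR with the block). Pcdh8, whose transcript is induced by activity, stood at 37.4, 72.3 and 30.4 against 120.1, 187 and 73.7 (-1.44 ± 0.11; adjusted p = 9.77e-05), and Pcdh17 at 34.8, 32.9 and 44.6 against 68.9, 63.7 and 72.1 (-0.88 ± 0.12). None of the 3 overlapped, although for Pcdh8 the gap between the highest OFC library and the lowest mPFC library was small. Of 14 cadherins 3 passed, again with the mPFC higher: Cdh13 (46.9, 70.1 and 31.7 against 149, 131 and 70.9 CPM; -1.24 ± 0.14), Cdh4 (-0.75) and Cdh11 (-0.41). Over the 14 cadherins 7 fold changes were positive and 7 negative, with a median of -0.003, so that this list did not lean to either region. Pcdh8, Pcdh19 and Cdh13 were stable genes. Of 29 transcription factors of cortical patterning, 3 were higher in the mPFC, Lmo4 (-0.44), Bhlhe22 (-0.74) and Zbtb18 (-0.51), and 0 in the OFC; none of the 3 passed without pair 1 or pair 2. Of 28 axon guidance ligands 1 passed, Sema7a (57.5, 52.2 and 47.0 against 34.7, 27.2 and 33.3 CPM; 0.72 ± 0.13), a membrane-anchored semaphorin, with the OFC higher.

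Layer genes did not move together. Upper layer genes gave 2 of 15 higher in the OFC and 4 higher in the mPFC, layer 5 genes 2 and 1 of 17, and layer 6 genes 0 and 1 of 15. Plcxd2, a phospholipase-like gene, stood at 92.3, 103 and 127 CPM in the OFC and 49.0, 47.9 and 61.9 in the mPFC (1.02 ± 0.10; adjusted p = 4.81e-04, edgeR with the block). Otof, the calcium sensor otoferlin, stood at 3.40, 8.82 and 3.96 against 16.8, 22.7 and 10.9 (-1.70 ± 0.24; adjusted p = 0.00359). Among deep layer genes Pcp4, a calmodulin regulator, stood at 633, 456 and 633 against 364, 253 and 359 (0.82 ± 0.08; adjusted p = 3.05e-04), and shares 23.7% of its exon bases with Igsf5. Crym, a thyroid hormone binding protein, stood at 81.1, 80.0 and 62.0 against 172, 139 and 124.9 (-0.96 ± 0.10; adjusted p = 4.90e-04). In each of these 4 the regions did not overlap and the gene was stable. The remaining retinoic acid genes, after Aldh1a1, gave Cyp26b1, which breaks retinoic acid down, at 5.64, 5.33 and 5.30 CPM in the OFC and 0.269, 0 and 1.37 in the mPFC (3.65 ± 0.74; adjusted p = 0.0206). On the mPFC side were the receptor Rxrg (9.73, 7.69 and 8.76 against 14.9, 22.2 and 20.2; -1.12 ± 0.22) and the synthesis enzyme Aldh1a3 (1.04, 0.6995 and 0.0706 against 4.31, 4.94 and 1.20; -2.67 ± 0.58), so that 2 of 17 passed in each direction; Cyp26b1, Rxrg and Aldh1a3 were not stable genes.

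**Figure D3:**
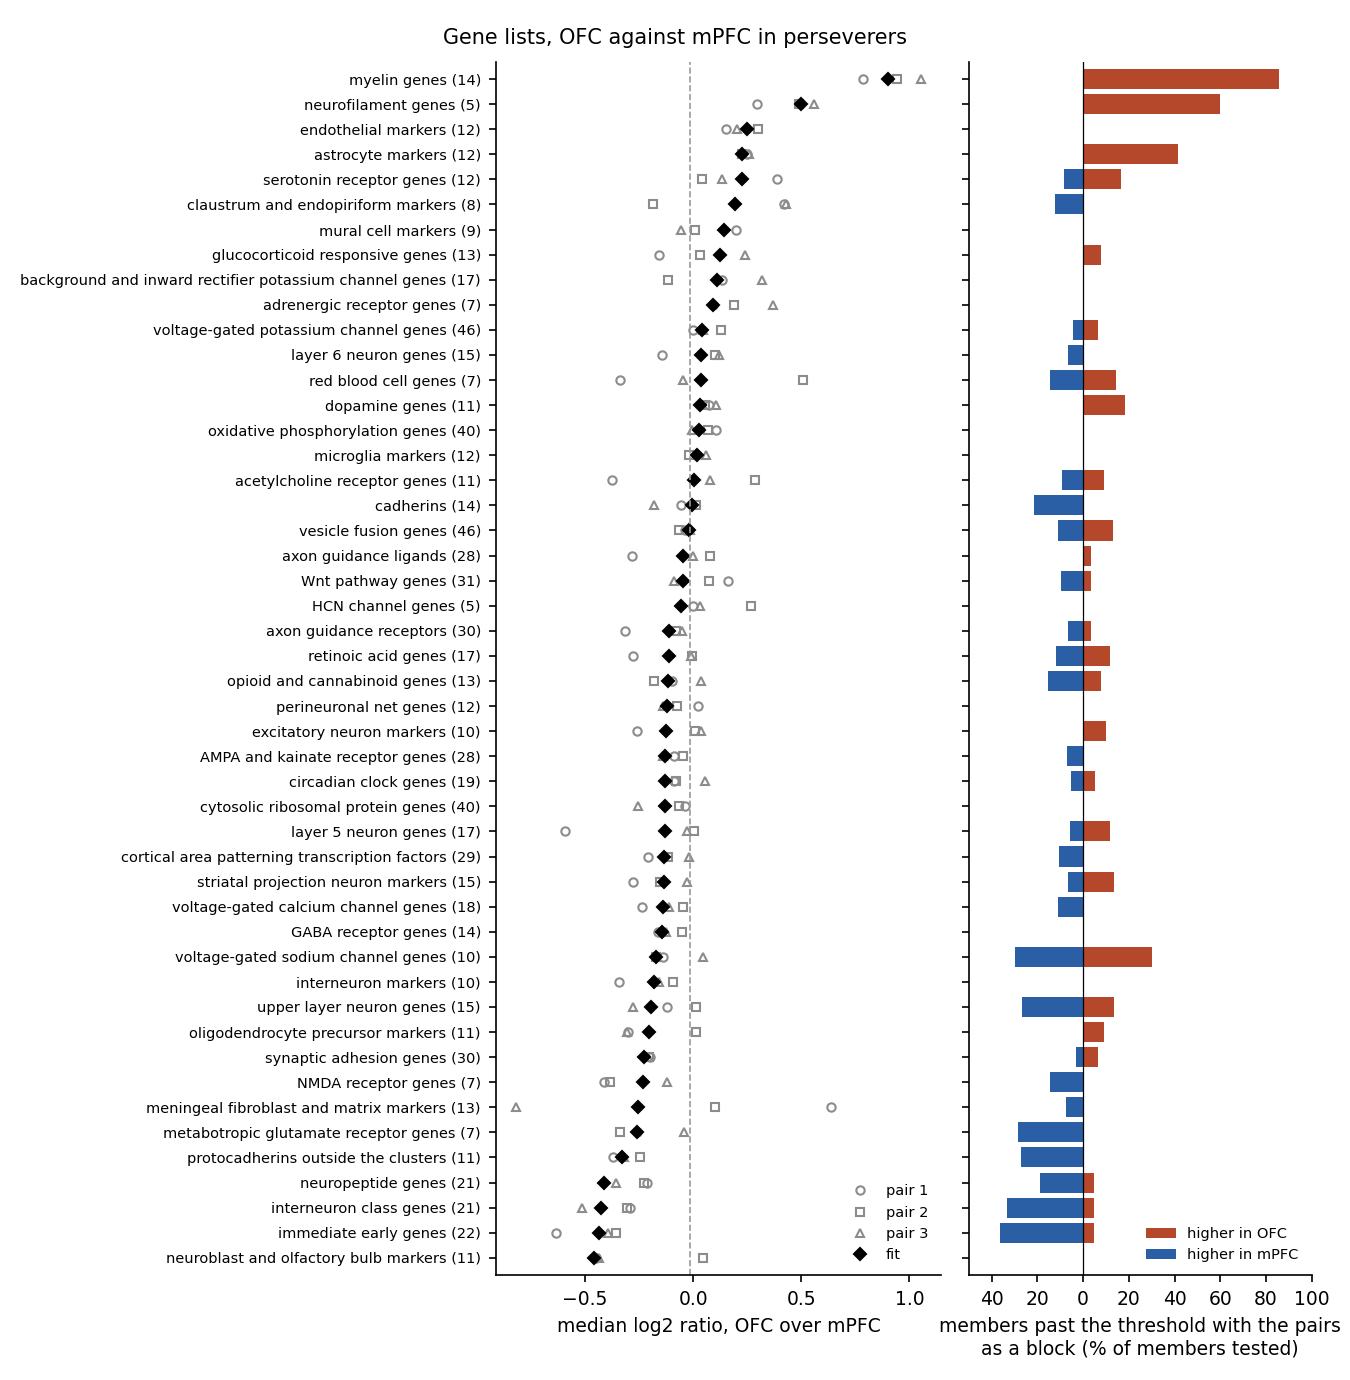
Left, the median log2 ratio of the OFC over the mPFC in each gene list (number of tested members in brackets) from the fit without the block and in each pair of equal replicate number; the dashed line is the median of all genes. Right, the share of members past the threshold with the pairs as a block, by direction: myelin genes reach 12 of 14 on the OFC side and immediate early genes 8 of 22 on the mPFC side.

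Markers of neighbouring tissue differed between libraries. Meningeal markers (13 genes) summed to 762, 900.3 and 573 CPM in the OFC and 362, 729 and 1069 in the mPFC, with no order by region, and 1 of them passed, the collagen gene Col1a2 (6.11, 15.3 and 8.83 against 15.4, 23.4 and 27.7 CPM; -1.18 ± 0.22; adjusted p = 0.0141, edgeR with the block). Neuroblast and olfactory bulb markers (13) summed to 49.8 to 54.7 CPM in the OFC and to 64.0, 48.9 and 97.7 in the mPFC, where replicate 3 was highest, and 0 of 11 tested passed. Choroid plexus and ependymal markers (10) summed to 9.96, 6.995 and 25.6 CPM in the OFC and 12.4, 12.2 and 15.3 in the mPFC. Of 3 tested 1 passed with the mPFC higher, Kl, the klotho gene (0.576, 0.377 and 0.283 against 3.70, 4.21 and 0.855 CPM; -2.66 ± 0.66; adjusted p = 0.0480). Claustrum markers (8) summed to 514 to 698 in the OFC and 633 to 737 in the mPFC, and 1 passed with the mPFC higher. Of these markers 5 had a positive and 3 a negative fold change, with a median of 0.19, so that the sum does not describe the list. Their part in the differences between regions was not tested. Oxidative phosphorylation genes (40 tested), ribosomal protein genes (40), perineuronal net genes (12) and HCN channel genes (5) had 0 past the threshold in either direction.

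The same contrast was measured in renouncers, which share no library with perseverers. There 15 genes passed without the block (0.104% of 14487), 8 higher in the OFC (0.0552%) and 7 higher in the mPFC (0.0483%). They included 5 of the 8 genes of perseverers, which is 62.5% of one list and 33.3% of the other. Log2 fold changes in renouncers were 2.51 ± 0.45 for Aldh1a1, 1.11 ± 0.17 for Vamp1, 1.92 ± 0.30 for Tmem215, -2.56 ± 0.29 for Grp, -1.78 ± 0.15 for Lypd1 and -0.90 ± 0.27 for Necab2. Renouncers gave the same sign for 8 of the 8 genes, for 636 of the 648 (98.1%) and for 103 of the 103 stable genes, against 9691 of 14293 genes measured in both (67.8%). Aldh1a1 stood at 82.9, 123 and 103 CPM in renouncer OFC and 11.5, 7.77 and 35.0 in renouncer mPFC, and Grp at 5.54, 5.57 and 5.58 against 29.4, 47.7 and 21.6, again with no overlap. Myelin genes had a median of 0.54 in renouncers, immediate early genes -0.41, interneuron class genes -0.42 and neurofilament genes 0.52.

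**Figure D4:**
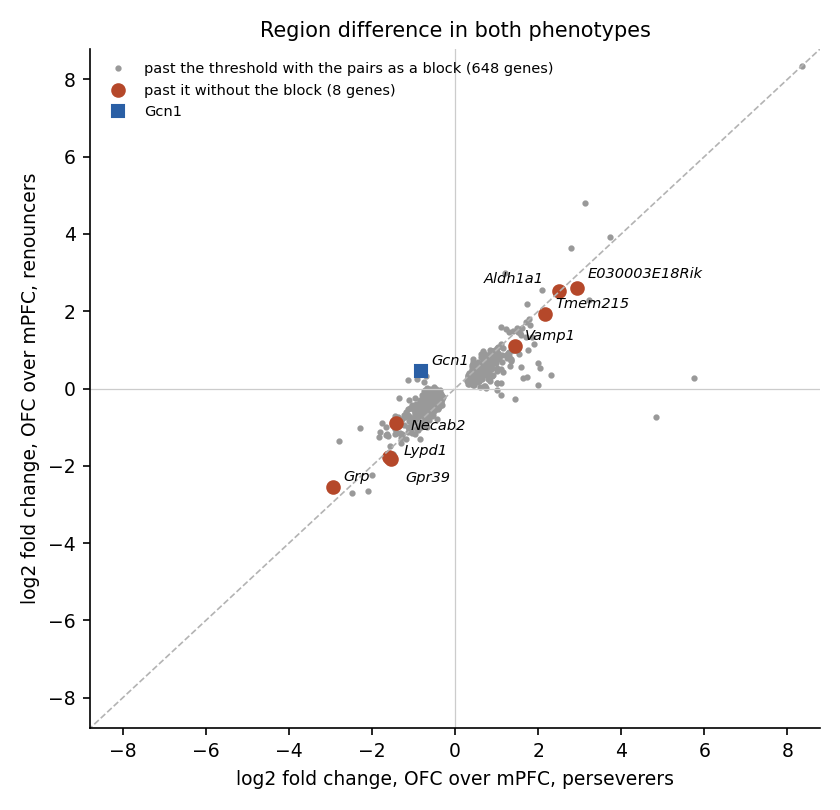
Log2 fold change of the OFC over the mPFC in perseverers (x axis) and renouncers (y axis) for the 648 genes past the threshold in perseverers with the pairs as a block, from fits without the block; the dashed line marks equal values. Of the 648 points 636 have the same sign on both axes, the 8 genes past the threshold without the block lie near the line, and Gcn1 has opposite signs.

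Whether the region difference itself depended on the phenotype was tested over the 12 dissections. On simulated data the edgeR test without the block found 13.3% of 2-fold and 58.3% of 4-fold differences. A lack of calls therefore does not show that the region difference was the same in both phenotypes. By edgeR 0 of 15025 genes passed (0%; 225 at an unadjusted p under 0.05), by DESeq2 0 (287 unadjusted) and by limma voom 0 (657). With the replicate number as a block edgeR gave 0 (346) and limma voom 0, and DESeq2 gave 1, Gcn1, which codes for the partner that activates the stress kinase GCN2 on stalled ribosomes. Gcn1 stood at 24.9, 28.7 and 25.6 CPM in perseverer OFC and 44.4, 49.3 and 45.1 in perseverer mPFC. In renouncers it stood at 35.9, 29.7 and 30.9 in the OFC and 25.6, 28.4 and 16.7 in the mPFC, so that the regions did not overlap in either phenotype and had opposite orders. The difference of the log2 fold changes was -1.25 ± 0.26, with an adjusted p of 0.99999 by edgeR, 0.0209 by DESeq2 with the block and 0.0820 by limma voom with the block. Endothelial markers had a positive fold change in 11 of 12 members in perseverers (median 0.25) and in 2 of 12 in renouncers (median -0.20), and meningeal markers medians of -0.26 and 0.88, with 0 members past the test of the difference in either list.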

How the data were processed

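The authors deposited raw counts per gene with a gene length, 1 column per library and 25239 genes per table; no column of per-sample values was without a sample (0). Per the labels' protocols, RNA was taken up in lysis buffer, extracted with a Qiagen kit and made into libraries with SMART-Seq v4 and Nextera kits, which do not mark strand. FastQC 0.11.8 and the build mm10 are named in the submitters' processing notes. Which aligner and counter were used is not given in the sources used here. Symbols were matched to RefSeq of GRCm38 (99.6% of the genes tested).

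Counts were fitted in R 4.3.3 with edgeR 4.0.16 (filterByExpr by region, TMM scaling, robust quasi-likelihood, two-sided, Benjamini-Hochberg over all genes kept). Standard errors were derived from the fold change and its F statistic and are approximate. The main fit has no block. Labels give both regions the replicate numbers 1 to 3, and every same-numbered correlation of deviations (0.12, 0.33 and 0.40) was above 0.1, so the numbers were treated as pairs; in renouncers they were 0.14, 0.02 and 0.14. The fit with the replicate number as a block was run as an alternative. Others were DESeq2 1.42.0, limma voom 3.58.1 with quality weights, RLE scaling, library totals, no filter and a stricter one (1 CPM in 3 libraries and 100 counts), a threshold of 0.1, all 12 dissections in 1 fit, and leaving out each library. Variants of the blocked fit and the interaction with a block by DESeq2 or limma were chosen after seeing the data. The tests were checked on simulated data. For the region contrast in perseverers the share of false calls lay above the threshold, more so with the block (24 of 179 calls) than without it (7 of 83). For the interaction 4 of 49 calls were false without the block and 3 of 92 with it. Small changes were mostly missed without the block, and in the interaction also with it.

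Named were the 5 genes with the smallest p in each direction, up to 4 members of each of 49 gene lists, and the 5 of the interaction in each direction; genes outside this rule are marked in the text, and some members within it are not reported here. The comparison, its members and the lists were chosen with earlier results of these data known. No list was tested as a set. The precision of a level is given by its 3 libraries, and counting intervals were not used. The libraries made from tissue before oDASS were not analysed here.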

Additional observations from a re-analysis of the deposited data

Results flagged for a closer look

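For 5 of the named genes every OFC library lay on one side of every mPFC library in perseverers and on the other side in renouncers. All 5 were named for small p in the test of the difference between phenotypes, none passed it (smallest adjusted p 0.99999 by edgeR over 15025 genes), and such genes are the ones that test ranks first, so that their order is no independent evidence. Gcn1 had a difference of log2 fold changes of -1.25. Egfr, a growth factor receptor, stood at 9.91, 13.1 and 11.9 CPM in perseverer OFC and 18.5, 18.0 and 22.7 in perseverer mPFC, against 15.1, 14.7 and 12.8 and 12.2, 10.5 and 9.44 in renouncers, a difference of -1.15. Rrp12, a gene of ribosome assembly, stood at 23.6, 23.9 and 23.6 and 37.8, 46.3 and 30.8, against 27.6, 31.5 and 23.9 and 23.6, 20.8 and 21.3, a difference of -1.01. Cdk2, a cell cycle kinase, stood at 1.61, 1.72 and 2.83 and 0.741, 0.363 and 0.798, against 1.44, 1.32 and 1.14 and 1.77, 3.05 and 1.82, a difference of 2.44. Lama3, a laminin chain, stood at 2.30, 2.74 and 2.19 and 0.135, 0.871 and 1.20, against 1.86, 0.660 and 1.55 and 5.08, 3.05 and 2.14, a difference of 3.02.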

How the results depend on the processing

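The number of genes past the threshold depended on the fit more than the direction of single genes did. Without the block, 8 genes in perseverers became 140 with DESeq2, 214 with limma voom, 13 at a threshold of 0.1, 18 in 1 fit of the 12 dissections, and 0 to 15 when a library was left out. The replicate block, which treats equal numbers as pairs, gave 648. With the block, the count was 1268 with limma voom, 1146 at a threshold of 0.1, 219 with the 12 dissections and 187, 131 and 1925 without pair 1, 2 and 3; 639 of the 648 passed by edgeR, DESeq2 and limma voom, and 217 also with the 12 dissections. In renouncers 15 became 141 with DESeq2, 29 with limma voom, 28 with the block, and 2 to 76 without 1 library. The test of the difference between phenotypes gave 1 with DESeq2 and the block and 0 in every other fit run. RLE scaling, library totals and both filters left the counts of perseverers within 1.5 times. With 3 libraries a region, the exact permutation test cannot go under 0.1, and genes near 1 CPM are known to few counts.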

Other observations

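More genes were detected in the OFC. After thinning each library to 12392731 counts, at least 1 count was found for 17211, 16863 and 16851 genes in perseverer OFC and for 16133, 16161 and 16125 in perseverer mPFC. The regions did not overlap, and the exact permutation p of 0.1 is the smallest that 3 against 3 allows. Renouncers gave 17165, 16814 and 16854 against 16494, 16220 and 16329.

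In the 12 dissections Tfap2d and Dlx4 had counts in the OFC alone. Tfap2d, an AP-2 family transcription factor, had 53, 22 and 49 counts in perseverer OFC and 0, 0 and 0 in perseverer mPFC, at least 38.3-fold higher against a floor of 3 counts over the mPFC group. Dlx4, a homeobox gene, had 19, 10 and 11 counts against 0, 0 and 0, at least 12.4-fold higher. Renouncers gave 33, 22 and 73 for Tfap2d and 9, 14 and 20 for Dlx4 in the OFC, and 0 in all 3 mPFC libraries for both. These genes, and the next 2, were picked after their values were seen.

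Wfs1, a protein of the endoplasmic reticulum, stood at 66.8, 143 and 53.8 CPM in perseverer OFC and 199, 374 and 152 in perseverer mPFC, with the lowest values of both regions in replicate 3 and the highest in replicate 2 (-1.48 ± 0.09; adjusted p = 1.79e-05, edgeR with the block). Syn2, a synaptic vesicle phosphoprotein, stood at 554, 748 and 461 against 979, 1184 and 767 (-0.74 ± 0.08; adjusted p = 4.90e-04), in the same order of replicates. In renouncers the log2 fold changes were -1.05 ± 0.15 and -0.56 ± 0.16. Both were among the 103 genes that passed in each fit without a pair.

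Adam12, a metalloprotease of the cell surface, stood at 1.27, 1.24 and 1.77 CPM in perseverer OFC and 0, 0 and 0.114 in perseverer mPFC, against 1.303, 0.367 and 0.202 and 0.857, 0.641 and 1.74 in renouncers. The test of the difference between phenotypes did not pass (adjusted p 0.99999 by edgeR), and the perseverer mPFC level rests on very few counts.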
